A study of Mus musculus with 3 samples.

Results

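The p53 pathway and the machinery of programmed cell death were read as 34 genes in mouse brain at postnatal day 4, in RNA of the dorsal cortex. The genes were chosen by symbol: 18 stand for p53 and its targets, and 16 for the BCL2 family and the caspase pathway. They carry 43 of the 55681 non-control probes of the array, 25 genes with 1 probe and 9 with 2. Of the 34 genes, 32 had a probe bright enough to be tested, among 23255 genes tested in all.

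The study hybridised 3 two-colour Agilent arrays, each with Cy5-labelled RNA of 1 Brpf1-deficient pup and Cy3-labelled RNA of 1 wild-type pup, with no dye swap. The pups had no treatment, and the labels number the pairs 1 to 3. Which Brpf1 allele or Cre line was used, and whether the pairs came from separate litters, is not given in the sources used here, so the p-values measure only the spread between these 3 arrays. Brpf1 encodes a scaffold protein of histone acetyltransferase complexes. Its own probe was brighter in Cy5, the channel labelled Brpf1-deficient, by 0.62, 0.73 and 0.96 on the 3 arrays (log2 of Cy5 over Cy3), with a limma adjusted p of 0.00459. This goes against the label. The sign is opposite to that in the authors' deposited table, where Brpf1 has a log fold change of -0.80, but the direction of that table is not given. Whether the probe lies in the deleted part is not known here, so every difference below is given by channel as labelled, and which genotype it belongs to is not settled. Array 1 stood apart for Emx1, a transcription factor of the dorsal forebrain, named here after its values were seen. Emx1 had intensities of 10.71, 7.23 and 7.33 in Cy5, against 10.06, 9.96 and 9.98 in Cy3, and did not pass over the 3 arrays (limma adjusted p = 0.104). Without array 1, the adjusted p was 0.024 for Hrk, 0.029 for Trp53inp1 and 0.0382 for Sesn2, and Casp8 no longer passed (0.0851).

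p53, encoded by Trp53, is a transcription factor that is held low by MDM2 and MDM4 and accumulates after DNA damage or other stress. It switches on genes for growth arrest, for metabolic protection and for cell death. In the mitochondrial route to death, BH3-only proteins relieve the block that BCL2, BCL-XL and MCL1 place on BAX and BAK. Cytochrome c released through these pores assembles with APAF1 and caspase-9, and XIAP holds the caspases back until DIABLO removes it. In the postnatal cortex this route removes surplus neurons, interneurons among them.

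Promoter sequence is shown first, since many p53 targets hold a binding site near the gene start. RefSeq promoter windows on GRCm38.p6, 250 bases before to 50 bases after a start, were found for 29 of the 34 genes, 42 windows in all. They were searched for the p53 half-site consensus, a decamer that reads the same on both strands, with no mismatch allowed. It was present in 8 of 19 windows of p53 and its targets (42.1%) and in 1 of 23 windows of the BCL2 family and caspase pathway (4.35%), against 8.36% of all 32851 promoter windows. The genes with a match were Trp53, Mdm2, Ccng1, Bax, Sesn1, Gadd45a and Aen in the first group and Bmf in the second. The 2 windows of Aen overlap and share 1 match. A match is a single half-site, not a whole binding site, and whether p53 binds there was not tested. Printed here in gene orientation, 5′ to 3′, are 4 targets that hold a match, in capitals, and Sesn2, the only p53 target with a window here that passed the expression test; it has no match in this window, which says nothing of sites elsewhere.
Mdm2, chr10:117710709-117711008, strand minus: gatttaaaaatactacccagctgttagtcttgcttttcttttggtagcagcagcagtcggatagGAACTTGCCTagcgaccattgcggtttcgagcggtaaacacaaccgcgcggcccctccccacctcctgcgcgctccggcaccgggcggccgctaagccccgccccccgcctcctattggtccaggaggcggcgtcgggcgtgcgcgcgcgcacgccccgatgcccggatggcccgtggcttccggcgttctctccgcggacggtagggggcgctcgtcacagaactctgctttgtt
Ccng1, chr11:40755237-40755536, strand minus: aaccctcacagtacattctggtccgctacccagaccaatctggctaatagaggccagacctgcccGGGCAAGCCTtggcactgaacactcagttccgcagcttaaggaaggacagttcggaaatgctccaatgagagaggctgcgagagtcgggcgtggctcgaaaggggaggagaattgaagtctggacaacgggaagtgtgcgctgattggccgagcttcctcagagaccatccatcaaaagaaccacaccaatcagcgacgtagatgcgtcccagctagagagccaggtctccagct
Bax, chr7:45466849-45467148, strand minus: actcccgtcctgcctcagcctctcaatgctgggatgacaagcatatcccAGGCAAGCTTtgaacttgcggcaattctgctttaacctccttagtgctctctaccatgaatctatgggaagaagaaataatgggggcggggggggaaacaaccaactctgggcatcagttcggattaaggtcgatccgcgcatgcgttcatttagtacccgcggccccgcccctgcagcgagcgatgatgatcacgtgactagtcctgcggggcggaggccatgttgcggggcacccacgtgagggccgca
Gadd45a, chr6:67037358-67037657, strand minus: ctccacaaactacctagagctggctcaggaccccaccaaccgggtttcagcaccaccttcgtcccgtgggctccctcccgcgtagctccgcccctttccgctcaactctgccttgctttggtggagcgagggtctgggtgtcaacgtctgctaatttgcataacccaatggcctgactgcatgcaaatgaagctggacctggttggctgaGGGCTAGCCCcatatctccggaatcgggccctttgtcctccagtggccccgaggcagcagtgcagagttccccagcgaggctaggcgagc
Sesn2, chr4:132510407-132510706, strand minus: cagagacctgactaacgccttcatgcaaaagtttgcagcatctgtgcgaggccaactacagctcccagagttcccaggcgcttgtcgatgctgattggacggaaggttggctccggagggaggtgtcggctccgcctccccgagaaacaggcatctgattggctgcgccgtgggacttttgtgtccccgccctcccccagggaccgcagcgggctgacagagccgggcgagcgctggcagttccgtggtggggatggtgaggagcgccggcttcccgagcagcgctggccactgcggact

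Among the 32 tested genes, differences between the channels were small. By the limma fit over all genes, 4 of the 32 tested passed an adjusted p of 0.05, which is 12.5%, against a background of 17.1% of all genes tested. Brighter in Cy5 were Sesn2 and Casp8 (background 7.94%), and brighter in Cy3 were Trp53inp1 and Hrk (background 9.12%). At an unadjusted p of 0.05 there were 9 of 32 (28.1%), against 36.8% of all genes. The sign was the same on all 3 arrays for 18 of 32 (56.2%), against 59.5% of all genes. The largest difference was that of Hrk, 1.3-fold. For all 32 tested genes the 95% interval of the ratio, unadjusted for multiple tests, lay within 1.5-fold, against 90.1% of all genes. The median size of the log2 ratio was 0.11 over the 32 genes and 0.14 over all genes.

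**Figure D1:**
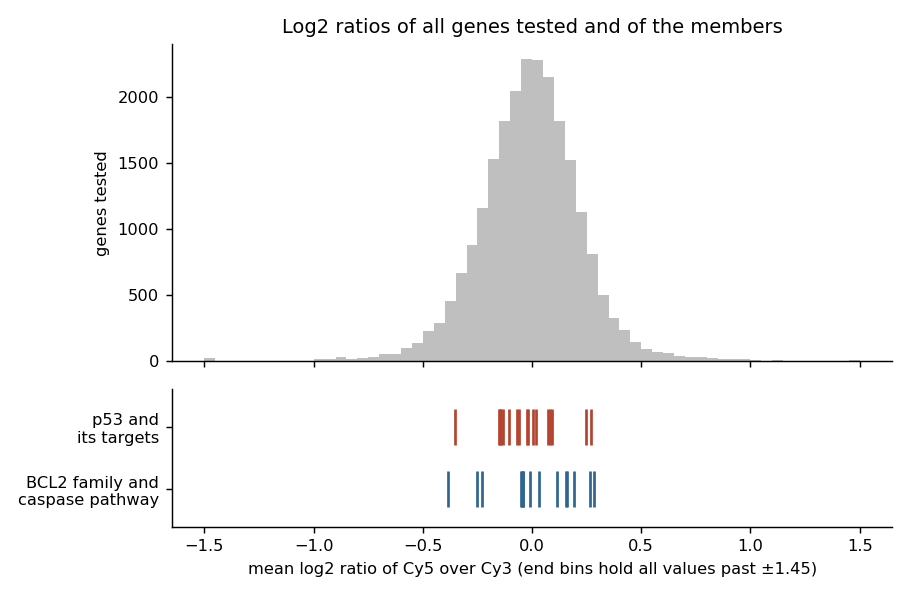
The upper panel counts genes tested (vertical axis) by mean log2 ratio of Cy5 (labelled Brpf1-deficient) over Cy3 (labelled wild type). Ticks below mark the 17 tested genes of p53 and its targets and the 15 of the BCL2 family and caspase pathway, all between -0.38 and 0.29, in the middle of the distribution.

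Set side by side, p53 with its targets and the BCL2 family with the caspase pathway had medians close to 0 and to each other as reported, and further apart under some other settings. Of 17 tested genes in the first group, 1 passed in each direction (11.8%, against 17.1% of all genes). In this group 7 ratios were above 0 and 10 below, and the median log2 ratio was -0.02. Of 15 in the second group, 1 passed in each direction (13.3%), 7 were above 0 and 8 below, and the median was -0.01. The first group's median was lower on every array, by 0.037, 0.033 and 0.054, which is a description without a test. The sizes differed more than the centres. The median size of the log2 ratio was 0.09 in the first group and 0.16 in the second, against 0.14 over all genes. An unadjusted p of 0.05 was reached by 3 of 17 and 6 of 15 genes, against 36.8% of all genes. The difference in size was not tested either. The difference of the medians, -0.012, became -0.092 with median centring and -0.123 with the mean of all kept probes.

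**Figure D2:**
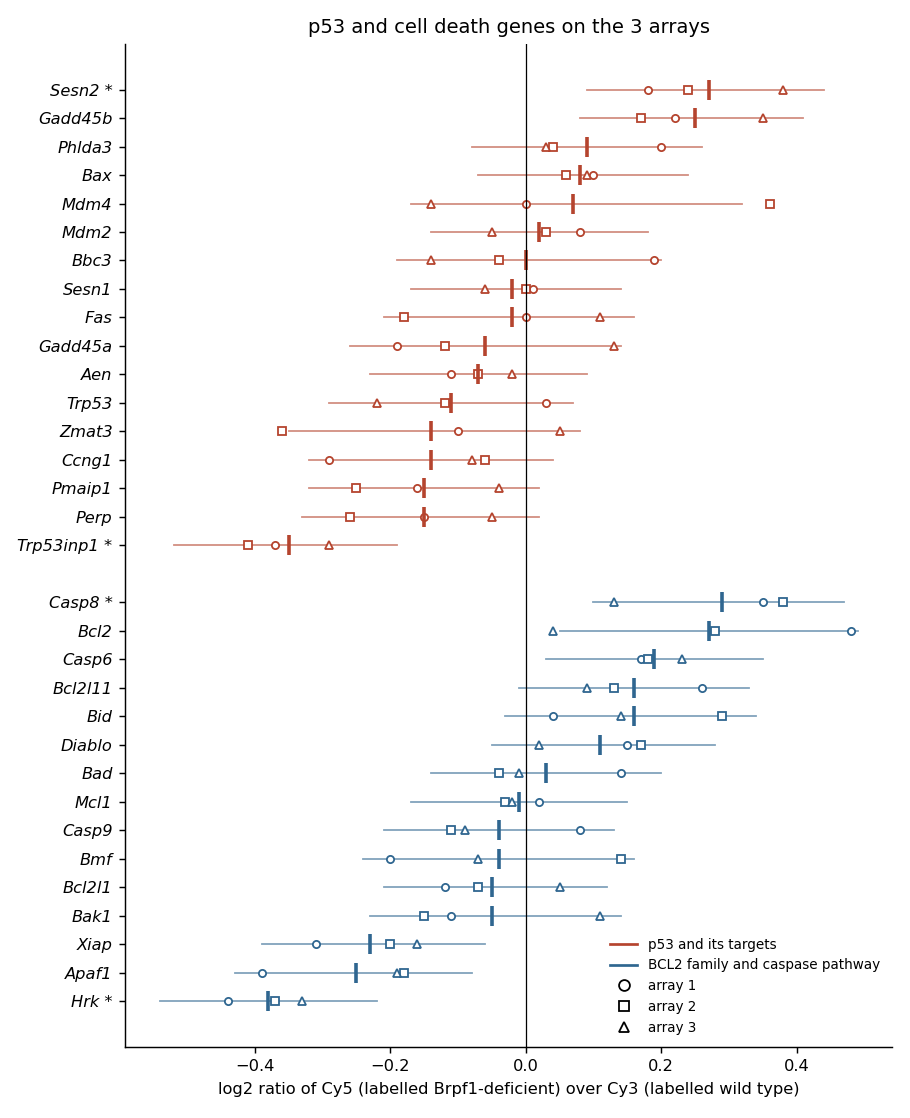
Each row is a gene; open symbols give the log2 ratio of Cy5 (labelled Brpf1-deficient) over Cy3 (labelled wild type) on arrays 1, 2 and 3, the upright tick their mean and the line its 95% interval from limma. Asterisks mark the 4 genes that passed an adjusted p of 0.05, Sesn2, Trp53inp1, Casp8 and Hrk.

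None of the 3 regulators at the head of the pathway passed the limma test, nor an unadjusted p of 0.05, so 0 of 3 by either. The shares over all genes were 17.1% and 36.8%, from which 3 genes cannot be told apart. Trp53 had normalized log2 intensities of 9.50, 9.22 and 9.16 in Cy5, against 9.47, 9.35 and 9.38 in Cy3. The channels overlapped, and the log2 ratio was -0.11 ± 0.13 (SD, n = 3 arrays, limma adjusted p = 0.343, 95% interval -0.29 to 0.07). Mdm2, the ubiquitin ligase that degrades p53 and is itself a p53 target, had log2 ratios of 0.08, 0.03 and -0.05. Mdm4, its relative that blocks p53 activity, had 0.00, 0.36 and -0.14 with one probe and -0.44, -0.01 and -0.21 with the other, so the probes differed in sign and neither passed (adjusted p over all probes of 0.628 and 0.136).

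Among the targets for growth arrest and stress defence, 2 of 9 passed (22.2%, against 17.1% of all genes), in opposite directions. Trp53inp1 encodes a stress protein that promotes p53 phosphorylation and autophagy. Its intensities were 10.62, 10.65 and 10.73 in Cy5, against 10.99, 11.06 and 11.02 in Cy3. Every Cy5 value lay below every Cy3 value, and the log2 ratio was -0.35 ± 0.06 (SD, n = 3 arrays, limma adjusted p = 0.0207), or 1.28-fold brighter in Cy3. The dimmer second probe of Trp53inp1 had 0.05 ± 0.11, with -0.07, 0.14 and 0.09 on the arrays, and the mean of both probes did not pass (-0.15, adjusted p = 0.145). The Trp53inp1 call was also lost without array 2 (adjusted p = 0.0578) or array 3 (adjusted p = 0.0561), on Agilent's processed signals (0.0571) and under trended, robust moderation (0.0543).

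Sesn2 encodes a sestrin, a stress protein that restrains the growth kinase mTORC1. It had intensities of 10.23, 10.05 and 10.08 in Cy5, against 10.05, 9.81 and 9.69 in Cy3. The lowest Cy5 value met the highest Cy3 value at 2 decimals, and the ratio was above 0 on all 3 arrays. The log2 ratio was 0.27 ± 0.11 (SD, n = 3 arrays, limma adjusted p = 0.0484), or 1.2-fold. The Sesn2 call sat at the threshold and was lost without array 2 (adjusted p = 0.111) or array 3 (0.25). It was also lost with a normexp offset of 0 (0.0625), on Agilent's processed signals (0.0808) and under trended, robust moderation (0.0569). With every probe tested on its own it was lost too, at an adjusted p of 0.05 after rounding. Gadd45b, a stress-induced regulator of growth arrest and DNA demethylation, fell just short. Its values were 10.16, 10.15 and 10.07 in Cy5, against 9.94, 9.98 and 9.72 in Cy3, with no overlap and a ratio of 0.25 ± 0.09 (adjusted p = 0.0559).

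The other 6 genes of this class lay between -0.14 and 0.09. Ccng1, encoding cyclin G1, a classical p53 target in mouse tissue, had log2 ratios of -0.29, -0.06 and -0.08 (adjusted p = 0.212). Phlda3, an inhibitor of AKT, had 0.20, 0.04 and 0.03, and Sesn1, the other sestrin here, had 0.01, 0.00 and -0.06. Gadd45a, which acts in arrest and repair, had -0.19, -0.12 and 0.13. Zmat3, an RNA-binding protein induced by p53, had -0.10, -0.36 and 0.05. Both probes of Aen, an exonuclease of apoptosis, were close to 0, at -0.07 ± 0.05 and -0.04 ± 0.02. The 7 genes of p53 and its targets with a half-site in a promoter window were all among those that did not pass, between -0.14 (Ccng1) and 0.08 (Bax). With a background of 17.1% of all genes passing, 7 genes are too few for this to stand out.

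Of the 5 tested p53 targets for cell death, 0 passed the limma test (against 17.1% of all genes). An unadjusted p under 0.05 was reached by 0 of 5 (against 36.8%). So few genes cannot be told from these shares. Bax encodes the pore-forming protein of the mitochondrial membrane, and its readings were the tightest of this class. Its intensities were 13.22, 13.22 and 13.28 in Cy5, against 13.11, 13.16 and 13.19 in Cy3. All 3 Cy5 values were above all Cy3 values, by a small margin, at 0.08 ± 0.02 (limma adjusted p = 0.396, 95% interval -0.07 to 0.24). Bbc3, encoding the BH3-only protein PUMA, had 0.19, -0.04 and -0.14, a mean of 0.00 ± 0.17. Pmaip1, encoding NOXA, had -0.16, -0.25 and -0.04 (adjusted p = 0.187). Perp, a membrane protein of p53-dependent death, had -0.15, -0.26 and -0.05 (adjusted p = 0.173). The death receptor gene Fas had 0.00, -0.18 and 0.11. Eda2r, a receptor of the tumour necrosis factor family, was not well above background in either channel on any array with either probe, so it was not tested.

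**Figure D3:**
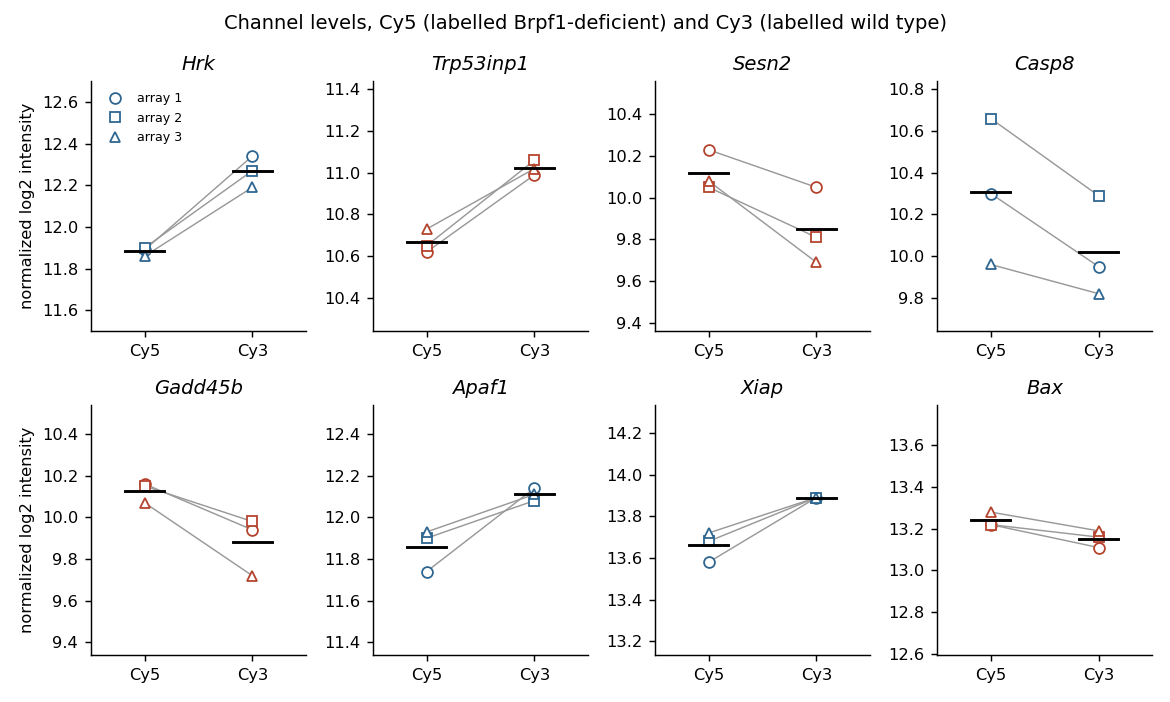
Normalized log2 intensity (vertical axis) of 8 genes in Cy5 (labelled Brpf1-deficient) and Cy3 (labelled wild type), with a symbol and a joining line for each array and a bar for the channel mean. Axes span the same range of 1.2 in every panel; Hrk and Trp53inp1 stand lower in Cy5 on all arrays, and the channels of Casp8 overlap although each array has Cy5 on top.

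In the BCL2 family, the single gene that passed was Hrk, which encodes the BH3-only protein harakiri, known for its part in neuronal death after loss of growth factors. Hrk had intensities of 11.89, 11.90 and 11.86 in Cy5, against 12.34, 12.27 and 12.19 in Cy3. The channels did not overlap. The log2 ratio was -0.38 ± 0.06 (SD, n = 3 arrays, limma adjusted p = 0.0167, 95% interval -0.54 to -0.22), 1.3-fold brighter in Cy3. This call held without any 1 array, with adjusted p of 0.0235 to 0.0478, and was lost on Agilent's processed signals (0.0598) and under trended, robust moderation (0.0543).

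The other 4 tested BH3-only genes did not pass, so 1 of 5 passed (20%, against 17.1% of all genes). Bcl2l11, encoding BIM, had log2 ratios of 0.26, 0.13 and 0.09 (adjusted p = 0.152), while its second probe was not well above background. Bid, which links death receptors to mitochondria, had 0.04, 0.29 and 0.14 (adjusted p = 0.185). Bad, controlled by growth factor signalling, had 0.14, -0.04 and -0.01 with its brighter probe and 0.35, 0.14 and 0.03 with the other. Bmf, a sensor of cytoskeletal stress, had -0.20, 0.14 and -0.07. Bik, which acts at the endoplasmic reticulum, was not well above background in either channel on any array and was not tested. Whether Hrk differs from these genes in its ratio was not tested.

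Of the 3 survival genes of the family, 0 passed the limma test (against 17.1% of all genes) and 1, Bcl2, had an unadjusted p under 0.05 (against 36.8%). Bcl2 had intensities of 10.23, 9.87 and 9.77 in Cy5, against 9.75, 9.59 and 9.73 in Cy3. The ratio of Bcl2 was uneven over the arrays, at 0.48, 0.28 and 0.04, and did not pass (0.27 ± 0.22, limma adjusted p = 0.088). Mcl1 was near 0 with its brighter probe, at -0.01 ± 0.02, and had 0.12 ± 0.08 with the dimmer one. Bak1, the second pore-forming gene, had -0.11, -0.15 and 0.11.

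Bcl2l1, which encodes BCL-XL, the main survival protein of young neurons, gave 2 different answers. The brighter probe, which stands for the gene, had log2 ratios of -0.12, -0.07 and 0.05. The dimmer probe had intensities of 9.66, 9.27 and 9.37 in Cy5, against 9.39, 8.97 and 9.09 in Cy3. Its ratio was 0.27, 0.29 and 0.28 on the arrays and passed when every probe was tested on its own (0.28 ± 0.01, adjusted p over all probes = 0.035; background 16.8% of probes). Both probes carry the same RefSeq accession, and their positions in the transcript are not given in the files used here. Apart from Bcl2l1, the 2 probes had opposite signs in Mdm4, Trp53inp1, Bcl2l11 and Mcl1, and the dimmer probe of Diablo had 0.03 against 0.11.

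**Figure D4:**
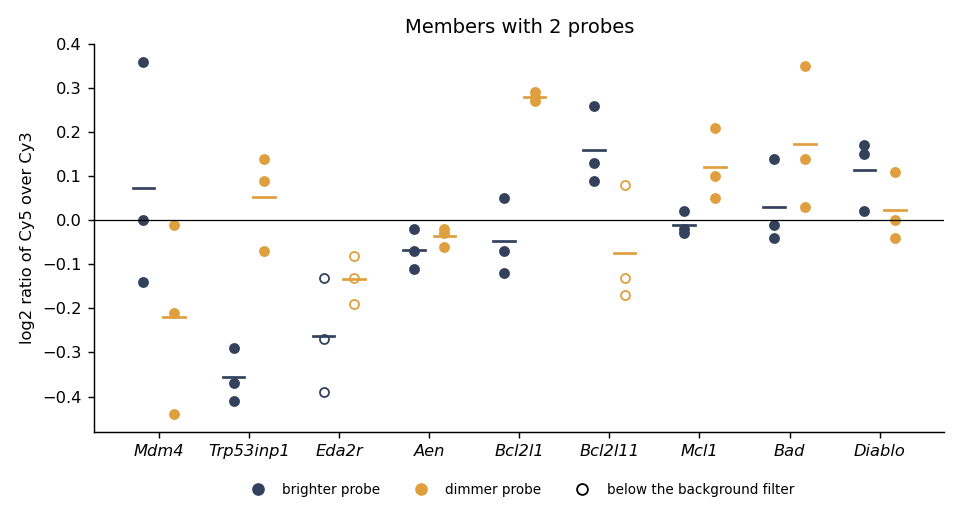
Log2 ratio of Cy5 (labelled Brpf1-deficient) over Cy3 (labelled wild type) for the 9 genes with 2 probes; points are arrays, bars are means, and open points are probes below the background filter. The dimmer Bcl2l1 probe stands at 0.28 while the brighter one lies at -0.05, and Trp53inp1 shows -0.35 and 0.05.

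In the caspase pathway, 1 of 6 genes passed (16.7%, against 17.1% of all genes). An unadjusted p under 0.05 was reached by 4 of 6, in both directions, against 36.8% of all genes. Casp8, the initiator caspase below the death receptors, had intensities of 10.30, 10.66 and 9.96 in Cy5, against 9.95, 10.29 and 9.82 in Cy3. The channels overlapped across arrays, but on each array Cy5 was brighter, by 0.35, 0.38 and 0.13. The mean was 0.29 ± 0.13 (SD, n = 3 arrays, limma adjusted p = 0.0473), 1.22-fold. The Casp8 call was lost when any 1 array was left out (adjusted p = 0.0692 to 0.179), with a normexp offset of 0 (0.0629), on Agilent's processed signals (0.101) and under trended, robust moderation (0.0564).

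Apaf1, the scaffold of the apoptosome, leaned the other way. Its intensities were 11.74, 11.90 and 11.93 in Cy5, against 12.14, 12.08 and 12.11 in Cy3, with no overlap (-0.25 ± 0.12, limma adjusted p = 0.059). Xiap, the caspase inhibitor, had 13.58, 13.68 and 13.72 in Cy5, against 13.89 on every array in Cy3 (-0.23 ± 0.08, adjusted p = 0.0646). Casp6, an effector caspase also tied to axon degeneration, had 12.11, 11.97 and 12.06 in Cy5, against 11.94, 11.79 and 11.83 in Cy3 (0.19 ± 0.03, adjusted p = 0.0867). Apaf1 and Xiap were each dimmer in Cy5 on all 3 arrays, and Casp6 was brighter. With median centring the ratio was -0.17 for Apaf1 and -0.03 for Xiap (limma adjusted p of 0.249 and 0.826). That of Casp6 was 0.27 there (0.0525). Casp9, the caspase of the apoptosome, had 0.08, -0.11 and -0.09, and Diablo, the antagonist of XIAP, had 0.15, 0.17 and 0.02. Over all tested members, 14 of 32 (43.8%) had channel levels that did not overlap, against 36.1% of all genes.

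**Figure D5:**
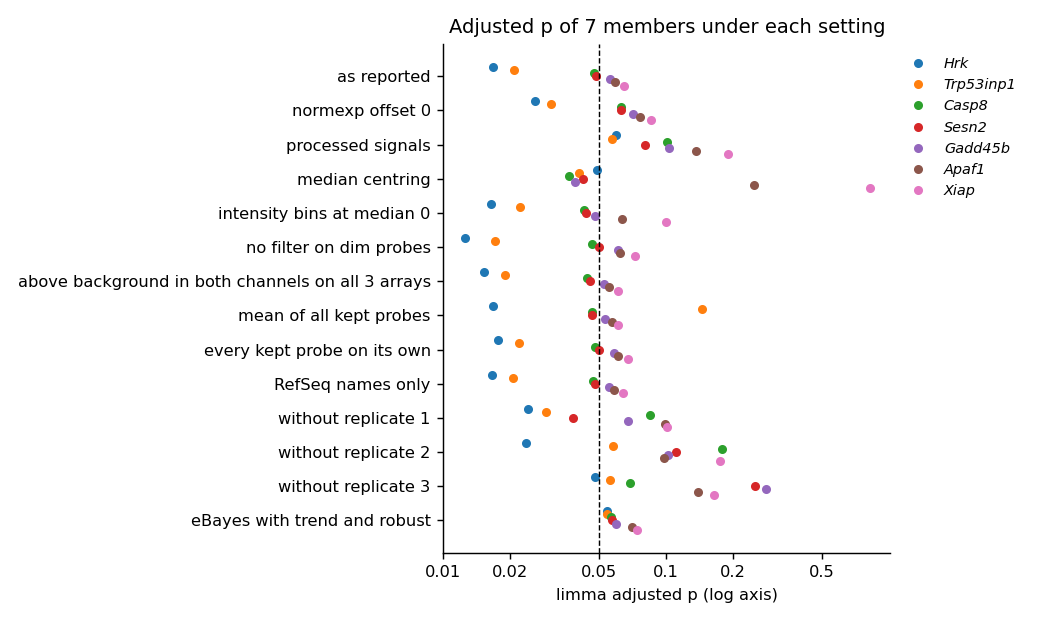
Limma adjusted p (horizontal log axis) of 7 genes under the reported setting and 13 alternatives, with a dashed line at 0.05. Hrk stays left of the line in 11 of 13 alternatives, Trp53inp1 in 8, Casp8 and Sesn2 in 7 each, and Gadd45b crosses it in 2.

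Wider lists of the same pathways gave few calls by each gene's brightest kept probe. Of 39 tested genes among 40 further p53 targets and regulators, Cy5 was brighter for 1 and Cy3 for 2, 7.69% against the background of 17.1%. Gadd45g, a relative of Gadd45b also expressed in neuronal progenitors, had log2 ratios of 0.54, 0.32 and 0.44 (adjusted p = 0.0151). Rprm, a p53-induced arrest gene that also marks deep cortical layers, had -0.35, -0.32 and -0.52 (adjusted p = 0.0183). Polk, a DNA polymerase for damaged templates, had -0.31 ± 0.07 (adjusted p = 0.0295) with one probe and 0.04 with another. Some dimmer probes passed where the brightest did not (background 16.8% of probes). These were of Plcd4 (-0.36 and -0.35, limma adjusted p over all probes of 0.0196 and 0.0202) and Ephx1 (0.30, 0.0405). Cdkn1a, which encodes p21 and is named here after its values were seen, did not pass at -0.05, -0.43 and -0.18 (adjusted p = 0.119), and its second probe had -0.19.

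Of 46 tested genes among 50 further apoptosis genes, Cy5 was brighter for 2 and Cy3 for 2, 8.70% against 17.1%. In Cy5 these were Tmbim6, an inhibitor of BAX-induced death in the endoplasmic reticulum (0.32 ± 0.16, limma adjusted p = 0.042), and Endog, a mitochondrial nuclease (0.29 ± 0.14, adjusted p = 0.0464). In Cy3 they were Pdcd4, an inhibitor of translation (-0.35 ± 0.22, adjusted p = 0.0482), and Dapk1, a death-associated kinase (-0.25 ± 0.04, adjusted p = 0.0461). Dimmer probes of Birc5 (0.34, limma adjusted p over all probes of 0.0326), Bnip3l (-0.32, 0.0294) and Septin4 (0.28, 0.0381) passed, unlike the brightest ones. Another dimmer probe of Birc5 had -0.11. The median log2 ratio was -0.01 over the p53 list and -0.03 over the apoptosis list, against -0.01 over all genes.

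These facts of the whole series bear on all values above. The share of non-control spots brighter than background was 57.9% to 58.2% in Cy5 and 59.9% to 61.0% in Cy3, and no spot was saturated. Across genes, which are no replicates, any pair of arrays had a Pearson r of 0.566 to 0.703. Of the 3967 genes that passed, 46.6% were brighter in Cy5, and 83.4% of the calls were with median centring in place of loess. Defining genes of cortical excitatory neurons were well above background on all arrays for 11 of 12 genes in Cy5, all but Emx1, and 12 of 12 in Cy3. Of these 12 genes, 4 passed as brighter in Cy5 and 2 as brighter in Cy3, 50% against 17.1%. In bulk tissue, fewer cells of a type and less RNA per cell cannot be told apart. Striatal genes passed as brighter in Cy5 for 8 of 13 (61.5%), against 7.94% of all genes passing in that direction. Their medians were 1.00, 0.18 and 0.62 on the arrays. Their summed normalized signal was 111000 to 126000 in Cy5 and 55800 to 100000 in Cy3. Erythroid genes passed as brighter in Cy5 for 2 of 5 tested (40%), with a sum of 269000 to 385000 in Cy5 and 98500 to 231000 in Cy3. Microglial genes passed as brighter in Cy5 for 4 of 14 (28.6%), with medians of 0.22, -0.04 and 0.29 on the arrays. Their sum was 89500 to 99300 in Cy5 and 91300 to 98500 in Cy3. This sum includes a bright Itgam probe with a log2 ratio of -0.29, while other probes of Itgam had 0.11 and 0.28. Interneuron genes passed in both directions. Of 12, 3 passed as brighter in Cy5 and 4 in Cy3, 58.3% against 17.1%. Endothelial genes passed for 2 of 12 (16.7%) and dividing-cell genes for 1 of 13 (7.69%), all brighter in Cy5. Astrocyte genes passed for 2 of 10 in each direction (40%, against 17.1%), and genes of the oligodendrocyte lineage for 0 of 10. These counts use each gene's brightest kept probe. Dimmer probes of Mbp (0.39), Kdr (0.45) and Csf1r (0.34) passed where the brightest did not (background 16.8% of probes). Their limma adjusted p over all probes was 0.0345, 0.0247 and 0.0292. Dimmer probes of some called genes, among them Gfap, Lhx6, Erbb4 and Maf, did not pass. All tested genes of the striatal, erythroid, microglial and interneuron lists were well above background in both channels on all arrays, and the part of such cells in the results was not tested.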

How the data were processed

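RNA of 3 pairs of pups, amplified from 350 ng per the labels, was read on 3 arrays of 1 slide in 1 scan. The deposited scanner files (Agilent Feature Extraction 10.7.3.1, per the file headers) hold, per spot, a median intensity for signal and for background, not normalized, and a processed intensity that is background-subtracted and dye-normalized by that software, which entered 1 alternative. Their deposited log10 ratio, red over green, was computed from those processed values and served to check direction. The authors' deposited table gives a log2 fold change, a t score and raw and adjusted p-values for 40000 of 62976 spots, up to a p of 0.458. Limma was used, per the submitters' processing notes; the sources used here do not give its direction or filters.

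Medians were background-corrected with normexp (offset 50) and loess-normalized in limma 3.58.1 under R 4.3.3, with control spots at weight 0 and 250 to 272 outlier-flagged spots per array left out. Kept probes had at least 1 channel well above background on 2 or more arrays (33009 of 55681), and each gene took its brightest kept probe. Mean log2 ratios were tested against 0 with a moderated, two-sided limma fit, adjusted by Benjamini-Hochberg over all 23255 genes, at 0.05. Channel levels are values after Aquantile normalization. All 43 probes of the 34 genes were named by RefSeq accession. The fit was tested on simulated data. Per-array values are given for genes past the threshold, for the 4 others of each group with the largest ratios, and for Trp53 and Brpf1; those of other genes were added after they were seen. The genes and lists were chosen with earlier results of these data known. Precision is limited by the number of arrays, 3.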

Additional observations from a re-analysis of the deposited data

How the results depend on the processing

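All 4 called genes (Hrk, Trp53inp1, Sesn2 and Casp8) kept their sign in all 13 alternatives. The alternatives gave 416 values of single genes, each by the gene's brightest probe (or the mean of its probes). Of these, 395 stayed on their side of the threshold, 19 calls were lost and 2 were gained, both of Gadd45b. Most of the 416 values belong to genes not called as reported, which had no call to lose. The lost calls are all of the 4 called genes. Of 13 alternatives, the call was kept in 11 for Hrk, 8 for Trp53inp1 and 7 each for Casp8 and Sesn2. Among the 416 values, no value past the threshold in either setting changed sign, and 25 values that passed in neither did. With every probe on its own, Sesn2 no longer passed (limma adjusted p of 0.05 after rounding). The dimmer Bcl2l1 probe did pass there, at 0.28 (adjusted p = 0.035), opposite in sign to the gene's reported -0.05. The counts of called members, 2 brighter in Cy5 and 2 in Cy3, became 0 and 0 with the processed signals and with trended, robust moderation, 0 in Cy5 with a normexp offset of 0, and 1 in Cy3 with the mean of all kept probes. Leaving out 1 array gave 0 to 1 in Cy5 and 1 to 2 in Cy3. The count over all genes, 3967, became 1116 with the processed signals, 778 with trended, robust moderation (95.2% of them brighter in Cy5) and 1894 (without array 3) to 3739 (without array 2) when 1 array was left out. The cause of these changes was not tested, and where an array was left out fewer samples entered as well.

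The median of p53 and its targets minus that of the other group, -0.012, was -0.032 with offset 0, -0.035 with the processed signals, -0.092 with median centring, -0.035 with intensity bins set to 0, -0.051 without the filter, -0.123 with the mean of all kept probes and -0.059 with every probe on its own. It was -0.038 with Bax, Bbc3 and Pmaip1 moved to the BCL2 family, -0.035 with means in place of medians, and -0.042 to -0.024 without 1 array. It had no test, and it was below 0 in each of these settings. A block for slide or scan could not be fitted, since all arrays share them.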

Other observations

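The authors' deposited table lists 28 probes of 26 of these genes, all with the opposite sign to the Cy5 over Cy3 ratio here, as for every called gene of the array. Of these 28 probes, 10 have a p-value under 0.05, and the smallest adjusted p of a member is 0.24. The largest log fold changes among them belong to the genes that were not well above background here: 0.68 and 0.51 for the probes of Eda2r and -0.60 for Bik in the authors' deposited table, beside -0.26, -0.13 and 0.17 as Cy5 over Cy3 after normexp with an offset. For Hrk, Trp53inp1, Casp8 and Sesn2 the sizes were close: 0.39, 0.36, -0.32 and -0.31 in the authors' deposited table, beside -0.38, -0.35, 0.29 and 0.27 here. Sizes also differed for some kept probes. The tested Bcl2l11 probe, well above background on all arrays, had -0.37 there beside 0.16 here. The dimmer Trp53inp1 probe had -0.18 there beside 0.05 here.

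Among further genes of cell death named after their values were seen, Bcl2l2, a survival relative of BCL2, had log2 ratios of -0.39, -0.12 and -0.17 and did not pass (limma adjusted p = 0.087). Ngfr, the p75 neurotrophin receptor, had 0.36, 0.10 and 0.13 (adjusted p = 0.118).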
